A study of Mus musculus with 21 samples.

Results

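DNA methylation of intestinal adenoma was compared with normal intestine of the same APCMin mice. The comparison used 7 of the 11 MeDIP-seq libraries, and of the 21 samples of the series. Normal ileum of 3 male mice (N4, N5 and N6) was set against 4 adenomas of the ileum, with Ad4 and Ad4-1 from mouse 4, Ad5 from mouse 5 and Ad6 from mouse 6. Pairs were formed by the animal that the labels give, and the measured members were all 13980 merged regions that the authors listed as differentially methylated (DMRs), of which 5135 were listed as hypermethylated and 8845 as hypomethylated in adenoma. All animals were C57BL/6J Apc-Min/+ and 15 to 19 weeks old, so normal tissue carried the same germline mutation as the tumours. Each adenoma was excised singly as a whole piece of tissue, without selection of epithelial cells. Fewer methylated molecules per cell and a smaller share of cells that carry the methylated copy cannot be told apart in such material.

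Apc holds beta-catenin, the effector of the Wnt pathway, at low levels, and adenomas of APCMin mice arise from epithelial cells that have lost the remaining normal copy of the gene. Methylation of cytosine in CpG dinucleotides is carried through cell division, is sparse in the CpG islands of many active or Polycomb-bound genes, and is dense in most of the rest of the genome. MeDIP-seq pulls down DNA fragments with an antibody against 5-methylcytosine, so its signal rises with the number of methylated CpG sites in a stretch and is not a percentage of methylated molecules. The signal is given in rpm, the mean depth of extended reads in a region scaled to the number of aligned reads of the library. Differences between the members of a pair are given on the scale of log2(rpm + 0.05), which understates changes at low signal.

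The leading gene regions of each direction differed in CpG content. The 300 bp with most CpG sites outside untranslated sequence are shown for the 3 regions of each direction with the largest paired difference among those in a gene, with at least 0.5 rpm in the higher tissue and no overlap between tissues, from the plus strand of mm9 (NCBIM37), with CpG sites in capitals. For hypermethylation these lie in an intron of Onecut3 (chr10:79965611-79965910), in coding sequence of Gata4 (chr14:63859519-63859818) and in coding sequence of Zfp503 (chr14:22804414-22804713).
Onecut3: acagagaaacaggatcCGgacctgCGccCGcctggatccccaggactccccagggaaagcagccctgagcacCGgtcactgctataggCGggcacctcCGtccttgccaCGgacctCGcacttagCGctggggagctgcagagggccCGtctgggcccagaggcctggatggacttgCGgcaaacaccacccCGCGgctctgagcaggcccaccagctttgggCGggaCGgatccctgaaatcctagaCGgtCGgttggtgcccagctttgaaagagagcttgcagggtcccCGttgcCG
Gata4: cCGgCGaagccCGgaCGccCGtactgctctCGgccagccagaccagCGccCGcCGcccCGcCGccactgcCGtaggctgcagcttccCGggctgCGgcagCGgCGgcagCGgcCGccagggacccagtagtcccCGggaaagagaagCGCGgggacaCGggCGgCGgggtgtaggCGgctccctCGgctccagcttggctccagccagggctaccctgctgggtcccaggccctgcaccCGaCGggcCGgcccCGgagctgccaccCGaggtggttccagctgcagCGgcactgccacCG
Zfp503: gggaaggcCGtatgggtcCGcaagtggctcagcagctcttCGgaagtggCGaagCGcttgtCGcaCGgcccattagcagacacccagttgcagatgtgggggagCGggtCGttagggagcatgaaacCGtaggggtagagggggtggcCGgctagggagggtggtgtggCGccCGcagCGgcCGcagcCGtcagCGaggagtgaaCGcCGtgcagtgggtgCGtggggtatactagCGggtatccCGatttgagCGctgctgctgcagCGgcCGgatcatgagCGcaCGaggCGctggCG
These stretches hold 19, 33 and 29 CpG sites. For hypomethylation the stretches lie in introns of Stau2 (chr1:16230839-16231138) and 1600021P15Rik (chr16:28882730-28883029) and outside the exons of Ddc, in a region at one of its promoters (chr11:11736832-11737131).
Stau2: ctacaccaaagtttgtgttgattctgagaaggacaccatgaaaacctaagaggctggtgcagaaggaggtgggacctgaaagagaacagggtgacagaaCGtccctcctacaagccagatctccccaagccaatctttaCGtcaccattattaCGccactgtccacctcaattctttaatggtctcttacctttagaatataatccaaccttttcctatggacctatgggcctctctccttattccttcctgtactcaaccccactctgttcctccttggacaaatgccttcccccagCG
1600021P15Rik: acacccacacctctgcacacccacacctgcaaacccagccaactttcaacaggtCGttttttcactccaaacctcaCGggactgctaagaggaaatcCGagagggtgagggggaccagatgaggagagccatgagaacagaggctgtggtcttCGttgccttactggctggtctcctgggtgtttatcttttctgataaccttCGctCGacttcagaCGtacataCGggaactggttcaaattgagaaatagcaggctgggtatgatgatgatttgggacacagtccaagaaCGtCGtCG
Ddc: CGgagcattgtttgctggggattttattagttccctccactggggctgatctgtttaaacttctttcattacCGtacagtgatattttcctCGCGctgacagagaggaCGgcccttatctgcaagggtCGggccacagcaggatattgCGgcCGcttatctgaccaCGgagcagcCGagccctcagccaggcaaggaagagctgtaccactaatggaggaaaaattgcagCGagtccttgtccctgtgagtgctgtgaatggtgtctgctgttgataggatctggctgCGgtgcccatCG
They hold 4, 11 and 13 CpG sites, fewer than any of the 3 hypermethylated stretches.

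Adenomas had a mean signal of 0.478 ± 0.00711 rpm (SD, n = 4 from 3 mice) where hypermethylation was listed, and normal samples one of 0.305 ± 0.0183 rpm (SD, n = 3). Where hypomethylation was listed the means were 0.287 ± 0.0136 rpm for adenomas and 0.467 ± 0.00156 rpm for normal samples. The samples of the 2 tissues did not overlap in either mean. The regions had been listed by a rank test in which these 7 samples took part, so this separation is a property of the list, and the counts and p-values given here describe the listed regions and are no independent test of them. The 7 libraries had 17315974 to 26297510 uniquely aligned reads. At 0.5 rpm a window of 500 bp then rests on 14.4 to 21.9 fragments, with a relative SD from counting alone of 19.1% to 23.5%.

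Adenoma and normal intestine of the same mouse differed in the listed direction in nearly every region and by similar amounts in all 4 pairs. For hypermethylated DMRs the median paired difference was 0.55 for Ad4, 0.57 for Ad4-1, 0.58 for Ad5 and 0.47 for Ad6. The hypomethylated DMRs gave -0.57, -0.66, -0.64 and -0.54 in the same order. The listing also required a minimum ratio between the tissue means, so the size of these medians depends in part on that cut. Ad6 showed the smallest median in both directions, and its library carries number 10 while that of N6 carries number 9. The other 3 pairs lie within library number 4 or 9, and the mean of their medians was 0.57 and -0.62, against 0.54 and -0.60 over all 4 pairs. When each adenoma was set against the mean of the normal samples of the other mice (N4 and N5 for Ad6), the medians of Ad6 were 0.57 and -0.54. In hypermethylated DMRs Ad6 was then the largest of the 4, beside 0.54 to 0.56 in the others. In hypomethylated DMRs it remained the smallest.

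**Figure D1:**
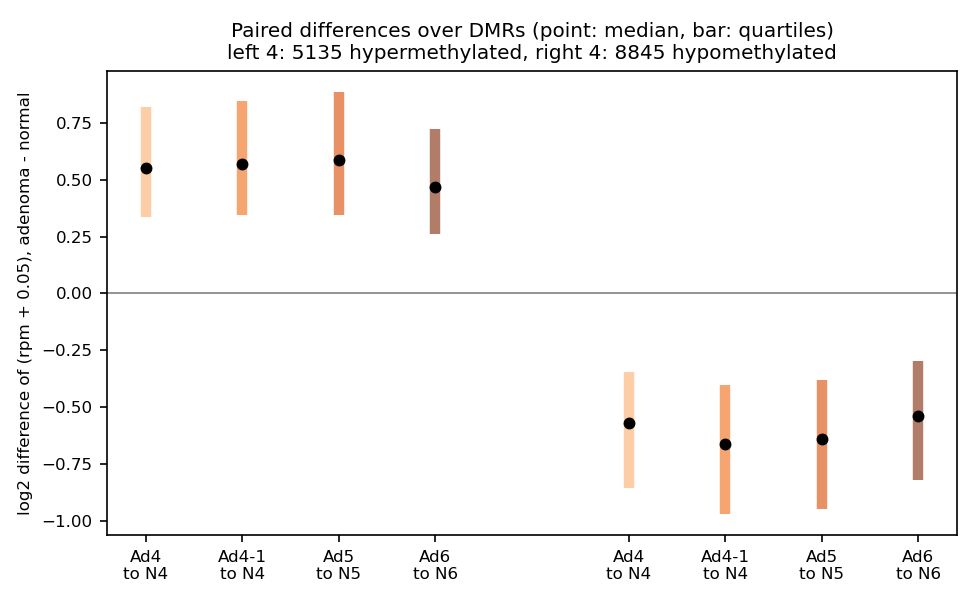
Median (points) and quartiles (bars) over DMRs of the log2 difference in (rpm + 0.05) between each adenoma and the normal intestine of its mouse, with 5135 hypermethylated DMRs at the left and 8845 hypomethylated DMRs at the right. All 4 medians lie between 0.47 and 0.58 above the zero line and between 0.54 and 0.66 below it, and every quartile bar stays on its side of zero.

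All 4 adenomas lay above their own normal sample in 4620 hypermethylated DMRs (90.0%) and below it in 8063 hypomethylated DMRs (91.2%). A single pair ran against the list in 275 and 441 DMRs, and no DMR had 2 or more pairs against it. Ad6 was the exception most often, in 114 hypermethylated and 169 hypomethylated DMRs. In the remaining regions a pair was tied at the 2 decimals deposited. The rank test of the authors leaves room for hardly any inversion between adenoma and normal samples in a window. These counts, and those without overlap below, therefore follow largely from the listing and do not measure agreement between mice. Regions in which each pair differed by more than 1.5-fold were few, with 331 hypermethylated (6.45%) and 813 hypomethylated DMRs (9.19%). The 4 adenomas did not overlap with the 3 normal samples in 3772 hypermethylated (73.5%) and 6859 hypomethylated DMRs (77.5%). With equal library medians, a scaling described with the calls, these counts were 4997 and 3416.

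With the mouse as a block, limma called 3729 hypermethylated (72.6%) and 6976 hypomethylated DMRs (78.9%) at an adjusted p under 0.05, each in the listed direction. Without the block it called 4084 and 7543. The median standard error of the fitted log2 difference was 0.20 in both directions, beside a median paired difference over the mice of 0.56 and -0.62. Setting the libraries to equal medians over the DMRs, of which most were listed as lower in adenoma, turned the split of calls from 34.8% hypermethylated to 59.2% (4948 against 3415 calls). This scaling lowered normal samples by 0.09 to 0.13 and raised adenomas by 0.07 to 0.11 on the log2 scale. Fewer calls remained when a mouse was left out, with 571 and 1578 without mouse 4, 1289 and 2544 without mouse 5, and 2216 and 4193 without mouse 6. Such fits also had fewer samples and residual degrees of freedom, so the part of each mouse was not separated from that of the smaller fit.

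The mice did not share a ranking of regions. Across hypermethylated DMRs, the Pearson correlation of paired differences was 0.13 between mice 4 and 5, 0.03 between mice 4 and 6 and -0.05 between mice 5 and 6. Hypomethylated DMRs gave 0.11, 0.02 and -0.02. Spearman correlations, which compare ranks, were 0.03, -0.02 and -0.13 for hypermethylated and 0.08, -0.004 and -0.04 for hypomethylated DMRs in the same order. These are descriptions over 5135 and 8845 regions that were all required to differ in the same direction, which narrows the range of the values, and no test was made of them. Among the 1520 hypermethylated DMRs with at least 0.5 rpm in the higher tissue the Pearson values were 0.28, 0.10 and -0.05 and the Spearman values 0.09, -0.03 and -0.21. Error from counting fragments, described next, also limits such correlations, so a shared ranking could have been missed.

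Adenomas were about as far from the normal intestine of their own mouse as from that of another. The SD over DMRs of the log2 difference, after the mean of each direction was removed, was 0.387 to 0.439 for the 4 pairs of the same mouse and 0.398 to 0.445 for the 8 pairs across mice. The 2 adenomas of mouse 4 differed by an SD of 0.415, within the 0.40 to 0.43 of the 5 pairs of adenomas from different mice, and normal samples differed from each other by 0.391 to 0.404. Deviations from the tissue mean correlated at -0.05 to 0.04 within a mouse and at -0.03 to 0.06 between mice. In the 4302 DMRs with at least 0.5 rpm the observed SD was 0.900 to 1.20 times the SD that counting of fragments alone gives. The ratios of 1.10 or more all belonged to pairs with N5, and pairs without N5 reached at most 1.08. At this depth a difference between mice shared by both tissues was therefore not detectable over the listed regions, and regions with little spread within a tissue were favoured by the way they were listed.

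**Figure D2:**
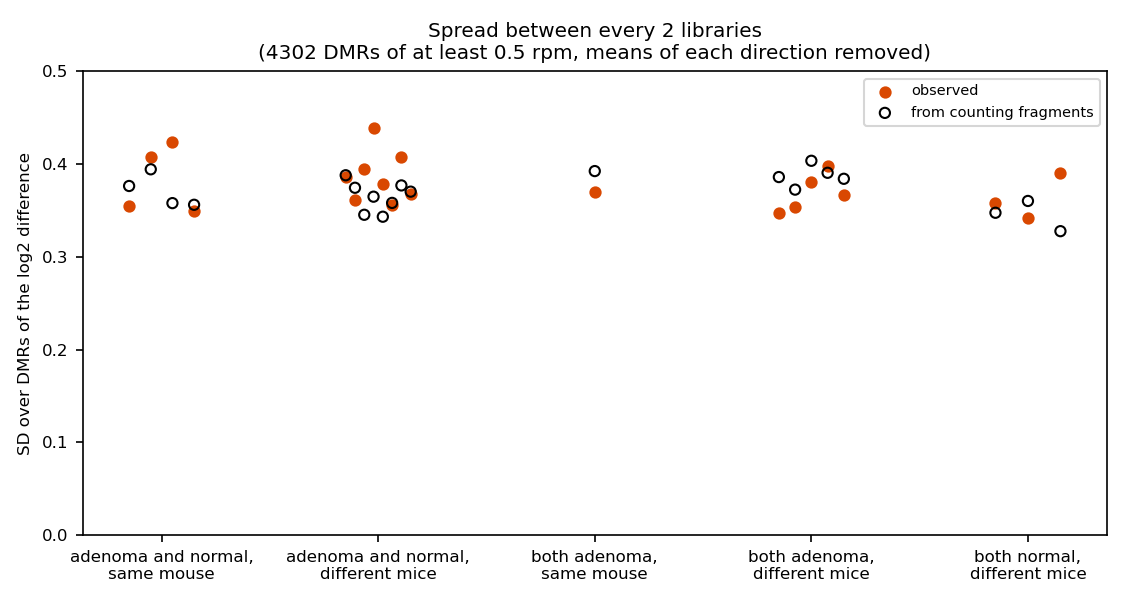
SD over the 4302 DMRs with at least 0.5 rpm in the higher tissue of the log2 difference between every 2 of the 7 libraries (filled points), beside the SD from counting fragments (open points), by kind of pair. The 4 pairs of adenoma and normal intestine of the same mouse lie among the 8 pairs across mice, and filled points lie near the open ones.

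The regions with the largest paired differences were fixed by a rule that required a gene, at least 0.5 rpm in the higher tissue and no overlap between tissues, which 864 hypermethylated and 1381 hypomethylated DMRs met. Of the first 12 hypermethylated regions, 11 held a CpG island and 5 touched a promoter, with a median of 6.03 CpG sites per 100 bp. Of the first 12 hypomethylated regions, 1 held an island and 2 touched a promoter, with a median of 1.72 CpG sites per 100 bp. Paired differences ran from 1.51 to 3.05 and from -1.31 to -1.66. All 24 passed limma with the block, beside 72.6% and 78.9% of all DMRs, as the rule by which they were picked from the same samples favours.

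**Figure D3:**
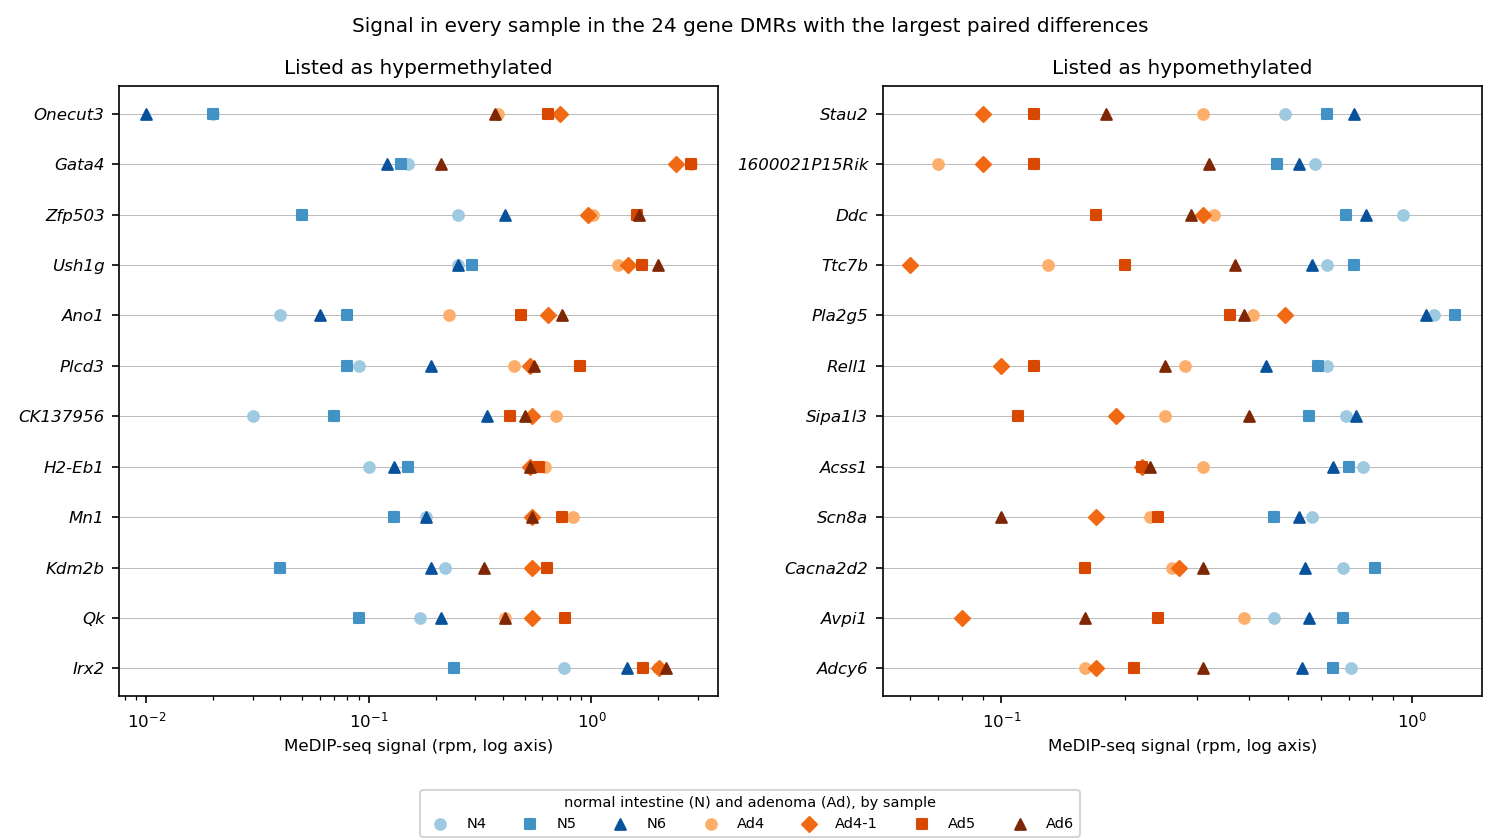
Signal in rpm (log axis) of each of the 3 normal samples (blue) and 4 adenomas (orange to brown) in the 12 gene regions per direction with the largest paired differences, ordered from the top by their size. Some points lie on each other, adenomas and normal samples do not overlap in any region by the rule of choice, and Ad6 at Gata4 (0.21 rpm) stands next to the normal samples.

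Onecut3, a cut-homeodomain transcription factor, held the largest paired difference, 3.05 ± 0.25 (SD, n = 3 mice), in a region of 1000 bp with 35 CpG sites. Its signal was 0.02, 0.02 and 0.01 rpm in N4, N5 and N6 and 0.38, 0.72, 0.64 and 0.37 rpm in Ad4, Ad4-1, Ad5 and Ad6. The normal values amount to 1.20, 1.75 and 0.741 fragments, so the size of the difference depends on the added 0.05 rpm. The same pattern of near-empty normal samples and 4 marked adenomas was seen at Slc9a3, the sodium-proton exchanger of the enterocyte brush border (chr13:74258501-74259500, promoter and coding sequence, 54 CpG sites). Normal samples there stood at 0.02, 0.03 and 0.01 rpm and adenomas at 0.28, 0.44, 0.52 and 0.18 rpm, a paired difference of 2.43 ± 0.45.

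Gata4, a zinc finger transcription factor of heart and gut development, had the widest range between mice of all hypermethylated gene regions with at least 0.5 rpm, with paired differences that spanned 3.29. The region chr14:63859501-63860750 covers coding and untranslated exon sequence and holds 81 CpG sites. Its signal was 0.15, 0.14 and 0.12 rpm in N4, N5 and N6, and 2.80, 2.40 and 2.79 rpm in Ad4, Ad4-1 and Ad5. Ad6 stood at 0.21 rpm. The paired difference was 3.72 in mouse 4, 3.90 in mouse 5 and 0.61 in mouse 6, so the mean of 2.75 ± 1.85 stands for no single mouse. The adjoining DMR chr14:63859001-63859500 gave the same order, with 0.02, 0.05 and 0.06 rpm in normal intestine, 0.72, 0.85 and 0.84 rpm in Ad4, Ad4-1 and Ad5, and 0.10 rpm in Ad6. It was added here after its values were seen. Both adenomas of mouse 4 carried the high signal.

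Zfp503, a zinc finger regulator of transcription, stood at 0.25, 0.05 and 0.41 rpm in normal intestine and at 1.02, 0.96, 1.60 and 1.64 rpm in the adenomas (paired difference 2.57 ± 1.28). Irx2, an Iroquois homeobox factor, had 106 CpG sites in a region over its promoter and coding sequence (chr13:72768251-72769750). Its adenomas lay close together at 1.98, 2.01, 1.71 and 2.16 rpm, while normal samples were spread over 0.75, 0.24 and 1.44 rpm. At both genes N5 was the lowest and N6 the highest normal sample. Across the 12 hypermethylated regions N5 was the lowest normal sample in 6, and mouse 5 gave the largest of the 3 paired differences in 8.

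Ush1g and H2-Eb1 varied little in either tissue. The region of Ush1g, which codes for a scaffold protein of sensory hair cells, also overlaps Otop2 and gave 0.25, 0.29 and 0.25 rpm in normal intestine and 1.32, 1.46, 1.68 and 1.99 rpm in the adenomas. Its difference was 2.46 ± 0.27. H2-Eb1, the beta chain of an MHC class II molecule, had 4 CpG sites and no island in its intronic region (chr17:34445001-34445500). Normal samples there were at 0.10, 0.15 and 0.13 rpm and adenomas at 0.62, 0.53, 0.58 and 0.53 rpm, a difference of 1.80 ± 0.22. The remaining regions belonged to Ano1 (a calcium-activated chloride channel), Plcd3 (a phospholipase C), CK137956, Mn1 (a regulator of transcription), Kdm2b (a histone demethylase that binds unmethylated CpG sites) and Qk (an RNA-binding protein). Kdm2b was measured at 0.22, 0.04 and 0.19 rpm in N4, N5 and N6 and at 0.54, 0.54, 0.63 and 0.33 rpm in the adenomas.

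Among the hypomethylated gene regions that met the rule Stau2, which codes for a protein that binds double-stranded RNA, had the largest paired difference, -1.66 ± 0.36. Its intronic region fell from 0.49, 0.62 and 0.72 rpm in N4, N5 and N6 to 0.31, 0.09, 0.12 and 0.18 rpm in the adenomas. Ddc, the decarboxylase that forms serotonin and dopamine, gave 0.95, 0.69 and 0.77 rpm in normal intestine and 0.33, 0.31, 0.17 and 0.29 rpm in adenoma (-1.49 ± 0.24). Pla2g5, a secreted phospholipase, shares its region (chr4:138387751-138388750) with the gene model of Pla2g2a, a known modifier of adenoma number in this mouse model. The region held 1.13, 1.27 and 1.08 rpm in normal intestine, the highest of the 12, and 0.41, 0.49, 0.36 and 0.39 rpm in the adenomas, a difference of -1.43 ± 0.23. Acss1, a mitochondrial acetyl-CoA synthetase, varied least between mice, with -1.38 ± 0.09. The other 8 regions lay in 1600021P15Rik, Ttc7b, Rell1, Sipa1l3, Scn8a (a sodium channel), Cacna2d2 (a calcium channel subunit), Avpi1 and Adcy6 (an adenylyl cyclase). At 1600021P15Rik and Ttc7b, Ad6 was the least changed adenoma, with 0.32 and 0.37 rpm against 0.06 to 0.20 rpm in the other adenomas.

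Besides Ush1g and Irx2, described above, the 5 longest gene regions listed as hypermethylated were those of Aldh1b1, Pcdh17 and Stx11. Aldh1b1, an aldehyde dehydrogenase, gave 0.41, 0.47 and 0.59 rpm in normal intestine and 0.85, 0.85, 1.21 and 0.84 rpm in adenoma over 1500 bp. Pcdh17, a protocadherin, rose from 0.22, 0.17 and 0.25 rpm to 0.50, 0.59, 0.63 and 0.51 rpm. Stx11, a syntaxin, had high signal in normal intestine already (1.03, 0.77 and 1.43 rpm) and 1.64 to 1.80 rpm in the adenomas. In the other direction Cdc42bpg, a kinase that binds Cdc42, fell from 0.99, 1.01 and 0.98 rpm to 0.73, 0.60, 0.60 and 0.62 rpm over its promoter and coding sequence. Bhlhe40, a helix-loop-helix repressor, fell from 0.55, 0.56 and 0.81 rpm to 0.26, 0.28, 0.31 and 0.27 rpm. D8Ertd82e, the longest with 1750 bp, gave a difference of -0.55 ± 0.17.

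Hypermethylation depended on CpG density differently in each mouse, and at dense regions the normal samples differed more from each other than the adenomas did. In DMRs with up to 1 CpG site per 100 bp the median paired differences were 0.56 for Ad4, 0.56 for Ad4-1, 0.57 for Ad5 and 0.44 for Ad6. In the 40 hypermethylated DMRs with over 8 CpG sites per 100 bp they were 0.91, 0.89, 1.48 and 0.40. The mean signal of these 40 regions was 1.04, 1.04, 1.11 and 0.941 rpm in the adenomas, in the same order, and 0.572 rpm in N4, 0.375 in N5 and 0.738 in N6. Mouse 6 therefore showed no larger difference at dense regions than at sparse ones.

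**Figure D4:**
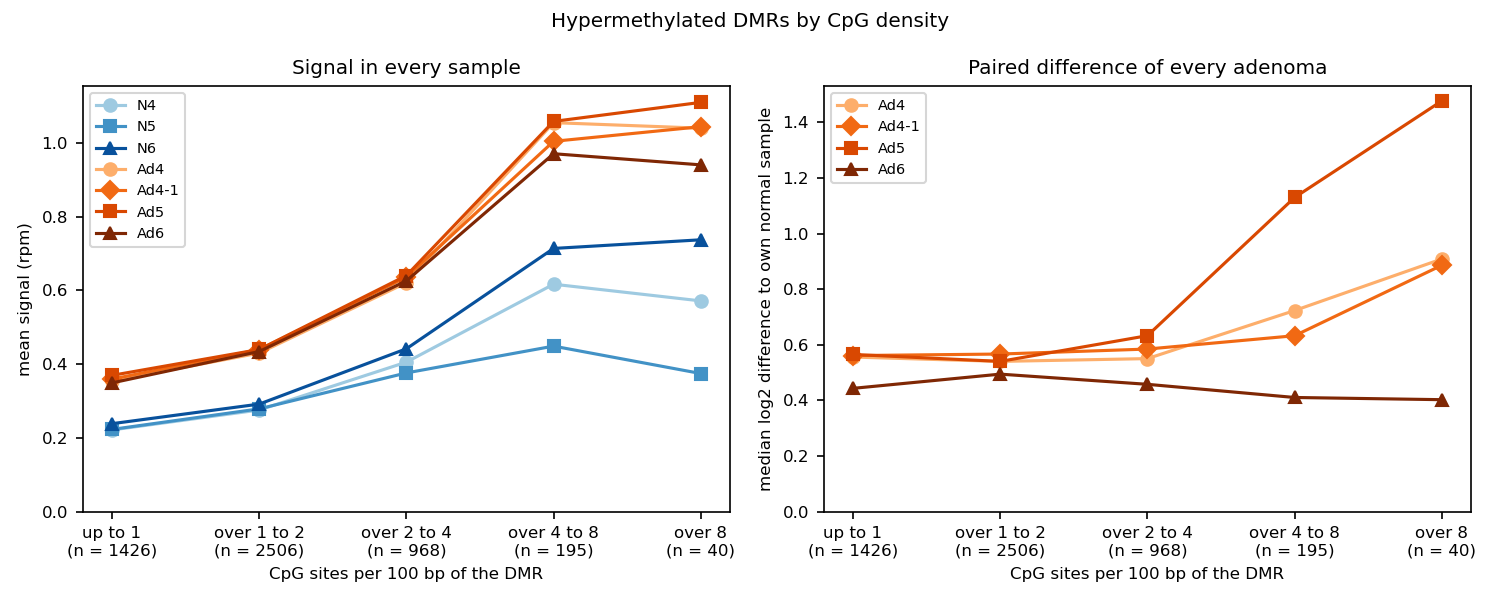
Mean signal in rpm of each sample (left) and median log2 difference in (rpm + 0.05) of each adenoma to the normal intestine of its mouse (right) over hypermethylated DMRs grouped by CpG sites per 100 bp, with the number of DMRs under each group. The 4 adenomas stay together at the left up to 1.11 rpm while N5, N4 and N6 part at dense regions, and at the right Ad5 reaches 1.48 while Ad6 ends at 0.40.

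Samples of both tissues were unevenly ordered at dense hypermethylated regions. Ad6 was the lowest adenoma in 94 of the 235 hypermethylated DMRs with over 4 CpG sites per 100 bp (40.0%). Ad4-1 was the lowest in 69 (29.4%) and Ad4 and Ad5 in 28 each (11.9%). Over all hypermethylated DMRs Ad6, Ad4-1, Ad4 and Ad5 were the lowest in 1337, 1114, 1180 and 1057. N5 was the lowest normal sample in 170 of the 235 (72.3%) and N6 in 13 (5.53%). Over all hypermethylated DMRs the shares were 36.3% and 23.8%. The 47 hypomethylated DMRs of the same density had N5 lowest in 26 (55.3%) and N6 lowest in 7 (14.9%), so N5 stood low at dense regions of both lists. Ad6 was the lowest adenoma in 6 of these 47 (12.8%) and the highest in 22 (46.8%), so the order of the adenomas differed between the lists. N5 and N6 share library number 9, and N5 had the most aligned reads of the 7 libraries. The part of enrichment efficiency and of cell content in these orders was not tested.

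Kcnab2, which codes for a potassium channel subunit, shows the pattern in a single promoter region that also overlaps Nphp4 (chr4:151850751-151851500, 32 CpG sites). The adenomas were at 0.67, 0.74, 0.94 and 0.67 rpm. Normal samples were at 0.46 rpm in N4, 0.08 in N5 and 0.60 in N6, and the paired differences were 0.56, 2.93 and 0.15 in mice 4, 5 and 6. CK137956 had the low values in N4 (0.03 rpm) and N5 (0.07) and 0.34 rpm in N6, against 0.43 to 0.69 rpm in the adenomas.

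For hypermethylated DMRs place in the gene made less difference than CpG density. Hypermethylated DMRs at promoters (from 1000 bp before to 500 bp after a start site) had a median paired difference of 0.61, those in exons 0.56, in introns 0.55 and between genes 0.56. Of the 490 promoter DMRs, 82.4% passed limma, beside 72.6% of all hypermethylated DMRs. The 399 hypermethylated DMRs with an island (a stretch of 300 bp with 50% GC or more and 0.6 or more of the CpG sites that its base composition predicts) had a median of 0.70, and the 4736 others 0.55. For hypomethylation islands and other DMRs both had a median of -0.62. By place the hypomethylated medians were -0.66 at promoters, -0.60 in exons, and -0.62 in introns and between genes. By density they were -0.60 with up to 1 CpG site per 100 bp, -0.62 with over 1 to 2 and with over 2 to 4, and -0.66 in the 45 DMRs with over 4 to 8. Islands made up 24.3% of the tenth of hypermethylated DMRs with the largest paired differences and 2.34% of the tenth with the smallest, while in hypomethylated DMRs these shares were 3.28% and 3.51%. These classes were chosen by the same readout, and no test was made.

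Regions of 750 bp ran in the listed direction in all 4 pairs more often than regions of a single window. Merged regions had passed the rank test on these samples in more than 1 window, so this is a property of the list. Among hypermethylated DMRs of a single window of 500 bp all 4 pairs ran in the listed direction in 88.8%, and among those of 750 bp in 95.9%. Hypomethylated DMRs gave 89.5% and 95.9%. All 41 hypomethylated DMRs over 1000 bp had 4 pairs below and no overlap. Of the 15 hypermethylated DMRs over 1000 bp, 14 had all 4 pairs above (93.3%). Over the 19 autosomes the median paired difference stayed between 0.54 and 0.59 for hypermethylated and between -0.60 and -0.65 for hypomethylated DMRs.

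Signal in the input library of N4, which was sequenced without the antibody, gave the level without enrichment. Hypermethylated DMRs had a mean of 0.142 rpm in input, 0.301 rpm in N4, 0.474 rpm in Ad4 and 0.481 rpm in Ad4-1. The N4 signal was at or below its input in 1141 of them (22.2%), and that of Ad4 in 350 (6.82%). In hypomethylated DMRs the shares ran the other way, with 746 for N4 (8.43%), 2239 for Ad4 (25.3%) and 2532 for Ad4-1 (28.6%). For the other mice such a comparison was not made here.

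Gene lists were compared by the direction of the DMRs that overlap a member or the 1000 bp before its start. Hypermethylated regions made up 36.7% of all DMRs and 38.4% of DMRs in genes. The developmental transcription factors stood above this share, with 40 hypermethylated of 57 DMRs (70.2%), while the Wnt pathway had 16 of 53 (30.2%) and receptor tyrosine kinase and MAPK signalling 24 of 79 (30.4%). The direction of a region was fixed by the list it came from, so the shares describe the lists and were not tested. The region given for a gene is the one with its largest difference, and other regions of the same gene could run the other way, as in 5 of the 27 Wnt genes with a DMR.

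**Figure D5:**
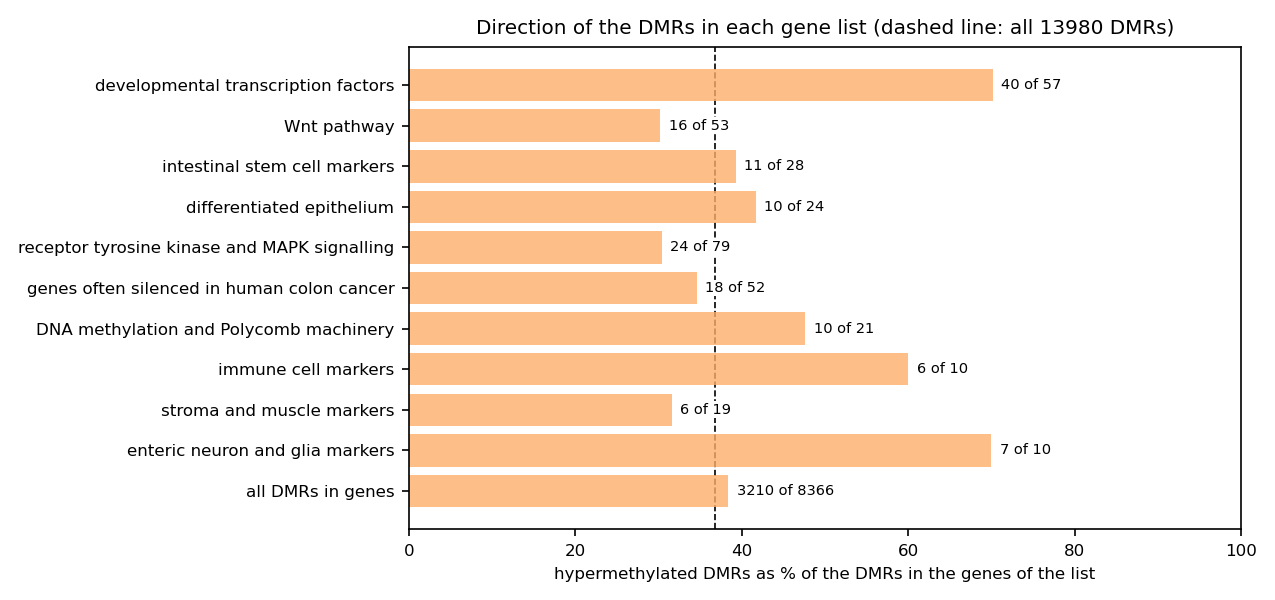
Hypermethylated DMRs as a percentage of the DMRs in the genes of each of 10 lists and of all DMRs in genes, with the counts beside the bars and all 13980 DMRs as a dashed line at 36.7%. Developmental transcription factors (40 of 57) and the small list of enteric neuron and glia markers (7 of 10) reach about the same share, and the Wnt and receptor tyrosine kinase lists lie below the line.

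Of 140 annotated developmental transcription factors 39 held a DMR, and 28 of them a hypermethylated one. In their 40 hypermethylated DMRs 36 passed limma (90.0%, beside 72.6% of all) with a median paired difference of 0.79 beside 0.56, and 14 of the 40 touched a promoter. Among all hypermethylated DMRs with an island the share that passed was 88.0% and the median 0.70. Of the 17 hypomethylated DMRs of the list 14 passed (82.4%, beside 78.9%), with a median of -0.54. Onecut3, Gata4 and Zfp503, described above, had the largest differences of the list. Hoxa3 ran in both directions within its gene model. Its largest hypermethylated region had a difference of 1.18, and 2 hypomethylated regions that lie at the promoter of Hoxa5 had -0.74 and -0.79. These Hox regions were picked after their values were seen.

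The Wnt list had DMRs in 27 of its 86 genes. Of its 16 hypermethylated DMRs 14 passed limma (87.5%, beside 72.6% of all) and of its 37 hypomethylated DMRs 31 passed (83.8%, beside 78.9%), with medians of 0.59 and -0.61, near those of all DMRs. Lef1, a nuclear partner of beta-catenin, fell in an intron from 0.38, 0.28 and 0.46 rpm to 0.25, 0.12, 0.15 and 0.12 rpm. Nkd1, a feedback inhibitor of the pathway, fell in an intron by 1.02 ± 0.15. Ror2, a receptor for noncanonical Wnt ligands, fell by 0.94 ± 0.20. Fzd5, a Frizzled receptor, ran the other way in an untranslated exon, with 0.11, 0.16 and 0.12 rpm in normal intestine and 0.22, 0.18, 0.34 and 0.49 rpm in the adenomas.

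Intestinal stem cell markers had 11 hypermethylated DMRs, of which 8 passed limma (72.7%, beside 72.6% of all), and 17 hypomethylated DMRs, of which 15 passed (88.2%, beside 78.9%). Ephb3, a receptor that positions cells in the crypt and a target of Wnt signalling, had 51 CpG sites in an exonic island region (chr16:21214001-21215250). Its signal fell from 1.20, 0.76 and 1.01 rpm to 0.55, 0.36, 0.45 and 0.58 rpm. The related Ephb2 held regions of both directions in its introns, with 5 hypomethylated, of which the largest differed by -1.09 ± 0.52, and 2 hypermethylated, at 0.72 ± 0.13 (passed limma) and 0.34 ± 0.29 (did not pass). A region of Cd44, a cell surface glycoprotein, fell by 1.14 ± 0.85. Hypermethylated regions lay in 8 of the 13 genes with a DMR, and the largest difference among them was at Msi1, an RNA-binding protein. Its promoter region, which also overlaps 4930430O22Rik, stood at 0.10, 0.00 and 0.19 rpm in normal intestine and at 0.17, 0.43, 0.27 and 0.58 rpm in adenoma, so that Ad4 lay below N6 although each pair ran upwards.

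Genes of differentiated epithelium had 10 hypermethylated DMRs, of which 6 passed limma (60.0%, beside 72.6% of all), and 14 hypomethylated DMRs, of which 12 passed (85.7%, beside 78.9%). Vdr, the vitamin D receptor, rose in an intron from 0.43, 0.61 and 0.58 rpm to 0.82, 1.28, 1.03 and 1.45 rpm. Slc15a1, the peptide transporter of enterocytes, fell by 0.98 ± 0.75 in an intron, from 0.19, 0.45 and 0.25 rpm to 0.14, 0.07, 0.09 and 0.17 rpm. N5 set the spread there.

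In the receptor tyrosine kinase and MAPK list 20 of 24 hypermethylated and 43 of 55 hypomethylated DMRs passed limma (83.3% and 78.2%, beside 72.6% and 78.9% of all). The annotation gives Fgfr2 a gene model of 3.01 Mb that takes in other genes, and 28 DMRs fell in it. Without them 11 of 14 and 29 of 37 passed, with medians of 0.55 and -0.71, an alternative added after the values were seen. Dusp6, a phosphatase that switches off ERK, fell over its coding exon (chr10:98728251-98729500) from 0.80, 0.55 and 0.63 rpm to 0.24, 0.25, 0.28 and 0.26 rpm, a difference of -1.17 ± 0.33. Eps8, a substrate of the EGF receptor, fell by 1.16 ± 0.05 and Insr, the insulin receptor, by 1.07 ± 0.09, both in introns and both with little variation between mice.

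Genes often silenced in human colon cancer had hypermethylated DMRs in 14 and hypomethylated DMRs in 16 of 62 genes. A promoter was touched by 3 of the 18 hypermethylated and 1 of the 34 hypomethylated DMRs. Over all DMRs these counts were 490 of 5135 and 527 of 8845. Of 18 hypermethylated DMRs 13 passed limma with a median of 0.56, the same as over all DMRs, and 29 of 34 hypomethylated DMRs passed (72.2% and 85.3%, beside 72.6% and 78.9% of all). The largest differences of the list at 0.25 rpm or more were hypermethylated, at Gata4 (2.75 ± 1.85) and Pcdh17 (1.22 ± 0.37), both described above. Mgmt, a DNA repair enzyme, fell in an intron by 1.05 ± 0.05 and Cdh13, a cadherin, by 1.17 ± 0.70. Among genes of DNA methylation and Polycomb complexes 8 of 10 hypermethylated and 8 of 11 hypomethylated DMRs passed (80.0% and 72.7%, beside 72.6% and 78.9% of all). Tet1, which oxidises methylcytosine, rose in an intron from 0.23, 0.32 and 0.32 rpm to 0.55, 0.57, 0.70 and 0.55 rpm. Dnmt3a, a methyltransferase that sets new methylation, rose by 0.90 ± 0.46 on the log2 scale in an intron, and Ezh1, a Polycomb methyltransferase, fell by 1.19 ± 0.64.

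Markers of other cells that a piece of intestine holds had DMRs in both directions. Of all 33924 annotated genes 5355 (15.8%) held a DMR, and gene length was not taken into account in these shares. Immune cell markers had 6 hypermethylated DMRs, of which 3 passed limma, and 4 hypomethylated DMRs, of which 3 passed (beside 72.6% and 78.9% of all DMRs), in 8 of 44 genes (18.2%). Cd22, a receptor of B cells, stood at 0.34, 0.37 and 0.53 rpm in normal intestine and at 0.58, 0.79, 0.66 and 0.66 rpm in adenoma. Gzma, a granzyme of cytotoxic lymphocytes, fell from 0.30, 0.24 and 0.25 rpm to 0.11, 0.17, 0.14 and 0.19 rpm. Ebf1 and Pax5, transcription factors of B cells that are also in the developmental list, fell by 0.67 ± 0.43 and 0.64 ± 0.39. Stroma and muscle markers, with DMRs in 11 of 30 genes (36.7%), had 5 of 6 hypermethylated and 11 of 13 hypomethylated DMRs past limma (83.3% and 84.6%, beside 72.6% and 78.9%). Among these were regions of Cdh5 and Flt1 of endothelium, which fell by 0.77 ± 0.51 and 0.76 ± 0.56, and of Lmod1 of smooth muscle and Tek of endothelium, which rose by 0.85 ± 0.96 and 0.75 ± 0.45. Enteric neuron and glia markers, with DMRs in 5 of 19 genes (26.3%), had 5 of 7 and 2 of 3 past limma (71.4% and 66.7%, beside 72.6% and 78.9%), with regions of Phox2a and Elavl4 higher by 0.64 ± 0.36 and 0.64 ± 0.11 and Edn3 lower by 0.69 ± 0.59. Methylation at a marker gene does not count cells, and whether the share of these cells differed between the tissues was not tested.

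The 2 adenomas of mouse 4 parted most, among hypermethylated gene regions with at least 0.5 rpm, at Rem2, a small GTPase. Its exonic island stood at 0.22 rpm in Ad4, the level of N4 (0.23 rpm), and at 0.75 rpm in Ad4-1. Ad5 and Ad6 stood at 0.64 and 0.52 rpm and N5 and N6 at 0.14 and 0.21 rpm. Ano1 and Cd74, the invariant chain of MHC class II, followed, with 0.23 against 0.64 rpm and 0.77 against 1.47 rpm in Ad4 and Ad4-1. At Ano1 the normal samples were at 0.04, 0.08 and 0.06 rpm, so both adenomas of mouse 4 lay above them. Among hypomethylated regions Ad4-1 was the lower one at Avpi1 (0.39 against 0.08 rpm), Stk32b, a kinase (0.28 against 0.05 rpm), and Tmcc3 (0.52 against 0.14 rpm). At Tmcc3 the region did not pass limma, at an adjusted p of 0.061, and Ad4 and Ad6 stood at 0.52 and 0.64 rpm beside 0.60 rpm in N4 and 0.66 rpm in N6.

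Pairs that ran furthest against the list belonged to mouse 6 in 4 of 6 named regions. Zfp385a, a zinc finger protein, had 0.61 rpm in Ad6 and 0.74 rpm in N6, while mice 4 and 5 ran upwards from 0.54 and 0.24 rpm to 0.98, 0.79 and 0.91 rpm. The region upstream of the microRNA genes Mir183 and Mir96 had 0.72 rpm in Ad6 and 0.83 rpm in N6, against 0.69 rpm in N4 and 0.37 rpm in N5 and 0.86, 1.07 and 1.09 rpm in their adenomas, with a limma adjusted p of 0.059. Prkch, a protein kinase C, and Ank3, an ankyrin, were listed as hypomethylated and were higher in Ad6 than in N6 (0.78 against 0.62 rpm and 0.45 against 0.38 rpm). Thsd4 and Akap13, an anchor of protein kinase A, ran against the list in Ad4-1 alone. Of these 6 regions, Zfp385a and Ank3 passed limma at adjusted p of 0.039 and 0.032. Hypomethylated regions whose difference ranged most between mice were Atxn7l1 (0.44 rpm in Ad6 and 0.45 in N6, but 0.14 in Ad5 and 0.68 in N5), Snx24, a sorting nexin (0.15 rpm in Ad6 and 0.77 in N6, but 0.47 in Ad5 and 0.54 in N5), and Sorl1, a sorting receptor, with 0.57 rpm in Ad6 and 0.56 in N6 beside 0.21 in Ad5 and 0.85 in N5.

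The lists of genes overlapped between the directions. Of the genes with a DMR, 1792 held hypermethylated regions only, 2641 hypomethylated regions only and 922 regions of both directions.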

How the data were processed

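The authors aligned MeDIP-seq reads to mm9 with Bowtie 0.12.5, discarded reads with several hits and repeated start positions, lengthened reads to 300 nt and took their mean depth in windows of 500 bp. The rpm values were deposited by the authors with 2 decimals for windows that passed their rank test of adenoma against normal samples, and overlapping windows were merged. Windows also had to pass a minimum ratio between the tissue means and a minimum mean signal in the higher tissue. Deposited ratios and p-values were not used, nor was Ad7, wild type intestine or RNA. Read totals came from the study's supplement. Members, gene lists and rules were chosen with earlier results of these data known.

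Paired differences on log2(rpm + 0.05) were averaged over 3 mice, Ad4 and Ad4-1 first. limma 3.58.1 (R 4.3.3) was fitted to the 7 samples with mouse as a block, with Benjamini-Hochberg adjustment over 13980 DMRs. For each region 3 residual degrees of freedom hold the spread between 3 mice and the difference between the 2 adenomas of mouse 4. The p-values also rest on a variance that limma's empirical Bayes step shares over all 13980 DMRs. Their listing favoured little spread within a tissue. An exact permutation test of 4 against 3 samples cannot go below 0.0571. In simulated data with these mean levels and residual spread, 200 of 13980 regions were changed and no difference between mice was added. The fit recovered 44 of 100 regions changed by 1 and 91 of 100 changed by 2 on the log2 scale, with 6 false calls. In the real data every region had been listed as changed, so these shares do not give the sensitivity of the calls above. The pairing comes from the animals in the labels, and deviations of paired samples correlated at -0.05 to 0.04. Genes were those of gencode vM1 on NCBIM37. Named regions were, per direction, the 12 with the largest paired difference as described, 3 each by a pair against the list, by difference of Ad4 and Ad4-1 and by range over mice (at least 0.5 rpm), the 5 longest, and up to 4 per gene list (at least 0.25 rpm). Of the regions named by this rule, 2 are not reported here.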

Additional observations from a re-analysis of the deposited data

Results flagged for a closer look

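Of 80 groups of 4 adenomas examined (78 named regions and the mean of each direction), 8 held a sample far from the other 3 by the ratio of its gap to the group's whole range (Dixon's 95% limit). Chance flags about 1 in 20 groups, or 4.00 of 80, and the regions had been picked for large or uneven values.

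At Gata4 (ratio 0.846) Ad6 was low, at 0.21 rpm beside 2.40 to 2.80 rpm. Ad5 stood above the other 3 adenomas at Lmod1 (0.964), Aldh1b1 (0.973) and Tet1 (0.867), and below them at Cd44 (0.875). Ad4-1 was the low adenoma at Wipf1 (0.900), with 0.09 rpm beside 0.18 to 0.19 rpm. Ad4 was the high one at Acss1 (0.889) and at Cdc42bpg (0.846). The part of counting error in these gaps was not tested region by region. At 0.25 rpm a window of 500 bp rests on 7.21 to 10.96 fragments in these libraries.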

How the results depend on the processing

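Over the 80 named regions and 11 alternatives each (880 values), no paired difference changed sign, and 97 moved by more than the SD over mice, 6 of them when 1 sample was left out. The direction was fixed by the listing on these samples, and many regions were picked for large differences. A change of sign was therefore unlikely from the start. limma's hypermethylated and hypomethylated calls (3729 and 6976) became 4084 and 7543 without the replicate block, 1234 and 2337 in the 1520 and 2782 DMRs with at least 0.5 rpm, 2045 and 4297 at an unadjusted p under 0.01, and 4948 and 3415 with equal library medians. Without mouse 4 they were 571 and 1578, without mouse 5 1289 and 2544, and without mouse 6 2216 and 4193. Leaving out single samples gave 346 to 3128 and 860 to 6073, with 346 and 860 without N4, 1289 and 2544 without N5 or Ad5, and 2216 and 4193 without N6 or Ad6. Without N4, the adenomas of mouse 4 have no partner. Every fit without a mouse or a sample also has fewer residual degrees of freedom. All 4 pairs ran past 1.5-fold in 331 and 813 DMRs, and the counts with all 4 pairs in the listed direction were 1381 and 2602 at 0.5 rpm or more. With equal medians 4997 hypermethylated and 3416 hypomethylated DMRs had no overlap. The mean of the 4 medians (0.54 and -0.60) was 0.61 and -0.68 with 0.01 rpm added, 0.35 and -0.39 with 0.25 rpm, 0.25 and -0.27 with 0.5 rpm, and 0.72 and -0.43 with equal medians. The block changed no listed direction. Values at low signal are limited by depth.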
